A study of Mus musculus with 3 samples.

Results

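The messenger RNA levels of 10 enzymes and helper proteins that modify, fold and cross-link collagen were followed in the left ventricle of the mouse heart. They are the collagen prolyl 4-hydroxylase alpha subunits P4ha1 and P4ha2, the lysyl hydroxylases Plod1, Plod2 and Plod3, the collagen chaperone Serpinh1, the procollagen-processing enhancer Pcolce2, and the lysyl oxidases Lox, Loxl1 and Loxl2. The genes were chosen by symbol, and all 10 were among the 15503 genes that the deposited tables list. By its title the study is about hypertrophy and fibrosis of the heart after endothelial cells lose PHD2, the product of Egln1. In all, 3 genotypes of C57BL6J mice were compared. The mice labelled Egln1/Hif2aTie2Cre carry Tie2Cre with Egln1 and Hif2a (Epas1) as the named targets, the Egln1Tie2Cre mice carry Tie2Cre with Egln1 as the target, and the control mice are labelled Egln1 floxed in one place and wild type in another. Their age and sex are not stated in the labels. Tie2Cre acts in the endothelium and in the blood-forming lineage, and cells in which Cre has not acted keep both genes. Which other cells of the ventricle it reached is not given in the labels. Each genotype is represented by 1 library, made from the pooled RNA of 3 mice. The differences described have no replicates behind them, and no p-value is given.

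Collagen chains are modified while they are made in the endoplasmic reticulum. Prolyl 4-hydroxylase converts prolines so that the triple helix is stable at body temperature, lysyl hydroxylases prepare lysines for sugar attachment and for cross-links, and Serpinh1 holds the folded helix until it leaves for the Golgi. Outside the cell, Pcolce2 helps proteases to remove the end of procollagen, and lysyl oxidases turn lysines into the reactive groups that join fibrils. The prolyl and lysyl hydroxylases are iron- and oxoglutarate-dependent dioxygenases, the same enzyme class as PHD2. Several genes of the group, P4ha1 and Plod2 among them, are known in other cells as targets of the hypoxia-inducible factors (HIF) that PHD2 marks for degradation.

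RefSeq promoter windows of 250 bases before to 50 bases after the start of the gene (GRCm38.p6) were at hand for 6 of the 10 members. Shown are the 4 of these whose libraries were furthest apart, since HIF and heat shock factor bind DNA at short known motifs. Capitals mark ACGTG or GCGTG on either strand, the core letters of the hypoxia response element, and GAANNTTC, letters of the heat shock element.
P4ha1 (chr10:59323046-59323345, plus strand): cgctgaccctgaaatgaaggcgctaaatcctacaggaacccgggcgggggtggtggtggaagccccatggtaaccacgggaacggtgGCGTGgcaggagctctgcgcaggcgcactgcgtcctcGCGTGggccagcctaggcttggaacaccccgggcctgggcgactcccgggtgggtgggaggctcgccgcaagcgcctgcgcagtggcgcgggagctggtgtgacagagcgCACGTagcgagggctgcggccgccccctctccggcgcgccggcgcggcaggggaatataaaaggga
Plod3 (chr5:136986769-136987068, plus strand): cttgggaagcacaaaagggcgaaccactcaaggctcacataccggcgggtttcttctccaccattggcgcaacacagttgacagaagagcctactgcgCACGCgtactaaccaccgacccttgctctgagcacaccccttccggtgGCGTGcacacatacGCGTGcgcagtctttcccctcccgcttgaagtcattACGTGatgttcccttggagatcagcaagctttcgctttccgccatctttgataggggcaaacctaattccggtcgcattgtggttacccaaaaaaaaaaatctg
Serpinh1 (chr7:99353190-99353489, minus strand): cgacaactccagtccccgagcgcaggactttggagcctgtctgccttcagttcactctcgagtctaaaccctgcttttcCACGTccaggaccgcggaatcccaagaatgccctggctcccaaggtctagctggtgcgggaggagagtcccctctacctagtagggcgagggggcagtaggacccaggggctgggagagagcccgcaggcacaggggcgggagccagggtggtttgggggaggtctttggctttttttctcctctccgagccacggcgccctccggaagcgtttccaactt
Pcolce2 (chr9:95637378-95637677, plus strand): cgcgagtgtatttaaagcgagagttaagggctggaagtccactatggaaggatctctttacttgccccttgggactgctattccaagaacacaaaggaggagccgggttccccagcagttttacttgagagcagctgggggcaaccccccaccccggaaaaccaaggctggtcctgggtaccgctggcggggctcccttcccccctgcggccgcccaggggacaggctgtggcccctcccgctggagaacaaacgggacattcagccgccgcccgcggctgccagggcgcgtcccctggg
P4ha1 had ACGTG at position -16, read on the other strand, and GCGTG at -163 and -126, counted from the start site. Plod3 had 4 matches, with ACGTG at -54. Serpinh1 had ACGTG at -171 on the other strand and Pcolce2 had no match. The windows not shown are those of P4ha2 and Plod1, whose libraries were closer together, at 1.31-fold and 1.12-fold. P4ha2 had 4 matches, with ACGTG at -78 and 11, and Plod1 had GCGTG at -20 and 15. Among the 6 members with a window, 5 held ACGTG or GCGTG, beside 43.8% of all 32851 promoter windows. The letters G and C made up 53.3% to 70.3% of the member windows, and all windows were not matched for this. GAANNTTC was found in 7.86% of all windows and, among the members, in Plod1. A match is a description of these letters and no evidence of binding.

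Values are FPKM, fragments counted per length of transcript and per size of the library, so levels can be compared between genes. The depth of the libraries is unknown, since FPKM does not keep read counts. The targeted genes were read first. Egln1 was 129.0 FPKM in the library labelled Egln1/Hif2aTie2Cre, 95.7 in Egln1Tie2Cre and 129.5 in floxed ventricle. The first of these was close to the floxed level, so it does not bear out the Egln1 part of its label. Epas1 was 54.5, 65.0 and 77.4 FPKM in the same order. These levels include all the cells of the tissue in which Cre is not active, so they cannot settle whether a label is right. Cardiomyocyte markers were high everywhere, with a summed FPKM of the 5 markers present in all 3 libraries of 27784, 26719 and 27640 in that order. Single markers differed more than the sum. Myh6 was 4600, 3645 and 6691 FPKM, or 1.84-fold lower in Egln1Tie2Cre than in floxed ventricle, whereas Tnni3 was 6555, 5816 and 4491. Ryr2 has no value in Egln1Tie2Cre. It was 85.8 FPKM in the library labelled Egln1/Hif2aTie2Cre and 145 in floxed ventricle, or 1.69-fold lower in the former.

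The group was led by Serpinh1 and Plod1 in every library, and the lysyl oxidases Lox and Loxl2 were lowest. In floxed ventricle the levels ran from 1.28 FPKM for Lox to 98.9 FPKM for Serpinh1, against a median of 5.52 over the 14897 genes with a value in all 3 libraries. Serpinh1 ranked above 95.6% of those genes in floxed ventricle, Plod1 above 89.7% and Lox above 24.0%. Differences between the libraries were uneven within the group. The highest library over the lowest was 2.40-fold for Serpinh1, 2.34-fold for Pcolce2, 2.22-fold for P4ha1, 2.11-fold for Lox and 1.82-fold for Plod3. It was 1.46-fold for Loxl1, 1.31-fold for P4ha2, 1.30-fold for Plod2, 1.12-fold for Plod1 and 1.09-fold for Loxl2. Over 11968 genes with a mean of at least 1 FPKM the same quantity had a median of 1.38, with quartiles of 1.22 and 1.66.

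**Figure D1:**
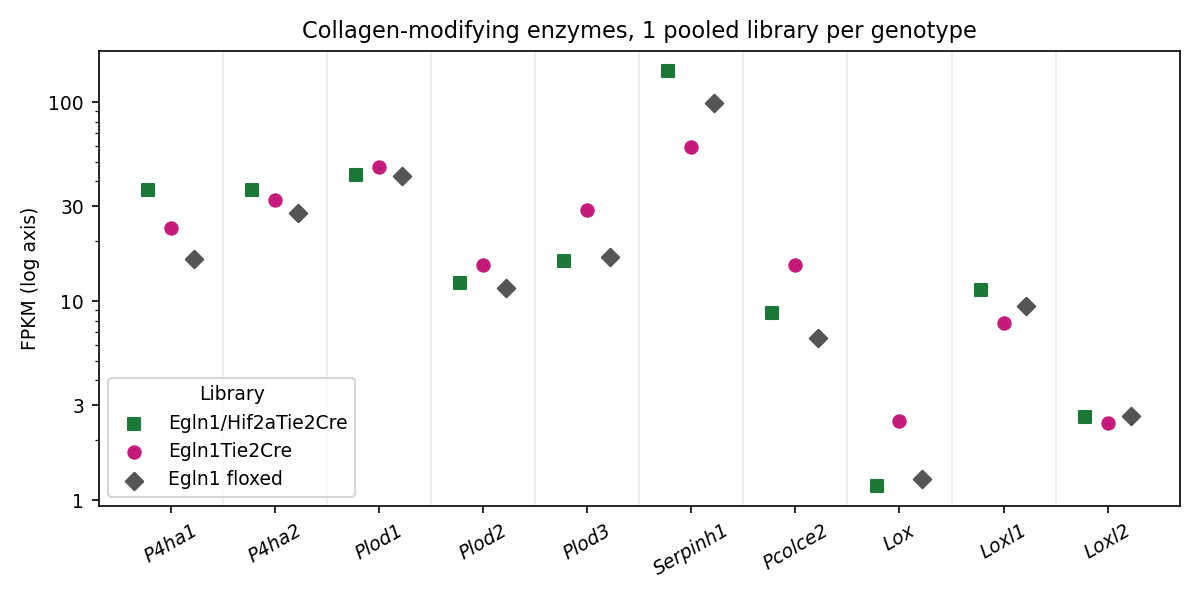
FPKM of the 10 collagen enzymes on a log axis, 1 point per pooled library (green squares Egln1/Hif2aTie2Cre, pink circles Egln1Tie2Cre, grey diamonds Egln1 floxed), with no error bars because each genotype has 1 library. Plod3, Pcolce2 and Lox are highest in Egln1Tie2Cre, whereas Serpinh1 is lowest there and P4ha1 is highest in the library labelled Egln1/Hif2aTie2Cre.

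A gene was counted as higher or lower where the libraries were at least 1.5-fold apart on the scale of FPKM + 1, on which low genes appear closer together than in plain FPKM, with a mean of at least 1 FPKM over the pair. All 10 members passed that filter in each comparison. In Egln1Tie2Cre against floxed ventricle, 3 members were higher and 1 was lower. Over all 11978 genes kept, 9.46% were higher and 8.73% lower, or 18.2% in either direction. Among coding genes without a near-identical copy, 7.69% were higher and 5.53% lower. In the library labelled Egln1/Hif2aTie2Cre against floxed ventricle, 1 member was higher and 0 were lower, with 4.42% of 11888 genes higher and 3.28% lower, or 7.7% in either direction. For copy-free coding genes the shares were 3.28% and 3.04%. In the library labelled Egln1/Hif2aTie2Cre against Egln1Tie2Cre, 2 members were higher and 3 lower, with 9.67% of 11999 genes higher and 9.64% lower, or 19.3% in either direction. Copy-free coding genes gave 5.87% and 8.13%. A threshold of 2-fold left 1 member in each comparison, always higher. It was Pcolce2 in Egln1Tie2Cre over floxed (3.93% of all genes), P4ha1 in Egln1/Hif2aTie2Cre over floxed (0.538%) and Serpinh1 in Egln1/Hif2aTie2Cre over Egln1Tie2Cre (4.31%). The median log2 ratio of the 10 members was 0.28, 0.16 and -0.03 in these comparisons, beside 0.02, -0.0038 and -0.02 over all genes kept. The comparisons share libraries, so their values are given side by side and not as separate evidence.

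The prolyl 4-hydroxylase alpha subunits carry the active site of the enzyme that hydroxylates collagen prolines. P4ha1 (chromosome 10, 59323296 to 59373304, plus strand, GENCODE M21 on GRCm38) had 36.3 FPKM in the library labelled Egln1/Hif2aTie2Cre, 23.2 FPKM in Egln1Tie2Cre and 16.3 FPKM in floxed ventricle. It was the only member counted as higher in the library labelled Egln1/Hif2aTie2Cre than in floxed ventricle, at 2.22-fold (log2 ratio 1.11), and it was also 1.56-fold higher there than in Egln1Tie2Cre (0.62). In Egln1Tie2Cre it was 1.42-fold above floxed (0.48), short of the threshold. P4ha2, the second alpha subunit, had 36.2, 32.1 and 27.7 FPKM in the same order of libraries. Both subunits thus had the same order of libraries, with smaller steps for P4ha2, which passed the threshold in none of the 3 comparisons.

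P4ha1 therefore took a larger share of the alpha subunit messages in both Tie2Cre libraries. It made up 50.1% of the summed FPKM of P4ha1 and P4ha2 in the library labelled Egln1/Hif2aTie2Cre, 42.0% in Egln1Tie2Cre and 37.1% in floxed ventricle. The sum itself was 72.5, 55.3 and 43.98 FPKM, or 1.65-fold higher in the library labelled Egln1/Hif2aTie2Cre and 1.26-fold higher in Egln1Tie2Cre than in floxed ventricle. P4hb, the beta subunit that keeps the alpha subunit soluble and is also protein disulfide isomerase, had 85.4, 99.0 and 74.2 FPKM. It exceeded the summed alpha subunits in each library and was highest in Egln1Tie2Cre.

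The lysyl hydroxylases divided, with Plod3 apart from the others. Plod3 (chromosome 5, 136987019 to 136996648, plus strand), which in addition attaches sugars to hydroxylysine, had 15.9 FPKM in the library labelled Egln1/Hif2aTie2Cre, 28.9 FPKM in Egln1Tie2Cre and 16.7 FPKM in floxed ventricle. It was 1.73-fold higher in Egln1Tie2Cre than in floxed ventricle (log2 ratio 0.76) and 1.82-fold lower in the library labelled Egln1/Hif2aTie2Cre than in Egln1Tie2Cre (-0.82). The library labelled Egln1/Hif2aTie2Cre was within 1.05-fold of floxed. Exons of Plod3 share 529 bases with Znhit1, a coding gene on the opposite strand, and whether counting used the strand is not given in the sources used here, so its value is uncertain. Znhit1 was 52.9, 49.7 and 35.4 FPKM in the same order of libraries, which is not the order of Plod3.

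Plod1 and Plod2 stayed within 1.3-fold in every comparison. Plod1, which hydroxylates lysines of the helix, had 43.0 FPKM in the library labelled Egln1/Hif2aTie2Cre, 47.4 in Egln1Tie2Cre and 42.5 in floxed ventricle. Plod2, which hydroxylates lysines of the telopeptides at the chain ends, had 12.4, 15.2 and 11.7 FPKM. Exons of Plod2 share 346 bases with Gm38391 on the opposite strand, so its value also depends on whether counting used the strand. In FPKM all 3 lysyl hydroxylases were highest in Egln1Tie2Cre, though for Plod1 the log2 ratio to floxed turned from positive to -0.017 when it was centred on genes of like FPKM. Their sum was 71.3, 91.5 and 70.9 FPKM. Plod3 made up 22.3% of that sum in the library labelled Egln1/Hif2aTie2Cre, 31.6% in Egln1Tie2Cre and 23.5% in floxed ventricle, while Plod2 kept between 16.5% and 17.4%.

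Serpinh1 (chromosome 7, 99345376 to 99353239, minus strand), the chaperone specific to collagen, was highest in one Tie2Cre library and lowest in the other. It had 143 FPKM in the library labelled Egln1/Hif2aTie2Cre, 59.6 in Egln1Tie2Cre and 98.9 in floxed ventricle. Egln1Tie2Cre was 1.66-fold below floxed (log2 ratio -0.72) and the library labelled Egln1/Hif2aTie2Cre was 1.44-fold above it (0.52), under the threshold. Between the Tie2Cre libraries the difference was 2.40-fold (1.25), the largest ratio of any member in the 3 comparisons. No near-identical copy of Serpinh1 and no overlapping gene was found in GENCODE M21.

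Chaperones other than Serpinh1 were read beside it. Over all genes kept in Egln1Tie2Cre against floxed ventricle, 9.46% were higher and 8.73% lower. Of 15 endoplasmic reticulum and heat shock chaperones listed, 14 were kept in the comparison of Egln1Tie2Cre with floxed ventricle, of which 1 was higher and 4 were lower. The lower ones were Hspe1, Hspa8, Hspd1 and Hspb1, while the log2 ratios of the other 10 were above 0. Each of the 4 lower ones has near-identical copies in the genome, so reads may have been shared with the copies. Hspa8, the constitutive cytosolic chaperone, was 570.2 FPKM in the library labelled Egln1/Hif2aTie2Cre, 109 in Egln1Tie2Cre and 392 in floxed ventricle, and Hspe1, a mitochondrial chaperonin, was 210.5, 26.7 and 129.7. The higher one was Pdia3, a disulfide isomerase of the endoplasmic reticulum (76.0, 86.9 and 54.1), which was named after its values were seen. In the library labelled Egln1/Hif2aTie2Cre against floxed ventricle 2 of 14 were higher and 0 lower, beside 4.42% and 3.28% of all genes. The 2 chaperones were Hspe1 and Hsp90b1, a chaperone of the endoplasmic reticulum with 198, 191 and 127 FPKM. Against Egln1Tie2Cre, 4 of 15 were higher in the library labelled Egln1/Hif2aTie2Cre and 0 lower, beside 9.67% and 9.64% of all genes. They were again Hspe1, Hspa8, Hspd1 and Hspb1.

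Pcolce2 (chromosome 9, 95637601 to 95698096, plus strand) showed the largest difference between Egln1Tie2Cre and floxed ventricle in the group. Its level was 8.73 FPKM in the library labelled Egln1/Hif2aTie2Cre, 15.2 in Egln1Tie2Cre and 6.51 in floxed ventricle. It was 2.34-fold higher in Egln1Tie2Cre than in floxed ventricle (log2 ratio 1.11) and 1.74-fold lower in the library labelled Egln1/Hif2aTie2Cre than in Egln1Tie2Cre (-0.74). The library labelled Egln1/Hif2aTie2Cre stood 1.34-fold above floxed (0.37), which did not reach the threshold. Pcolce, the related enhancer, was 38.7, 38.4 and 38.7 FPKM in these libraries, and Bmp1, the protease that both assist, was 13.0, 12.5 and 11.8. Neither of these partners differed by 1.5-fold in any comparison.

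The lysyl oxidases were low, and Loxl1 led them. Lox, which oxidises lysines of collagen and elastin, had 1.18 FPKM in the library labelled Egln1/Hif2aTie2Cre, 2.49 in Egln1Tie2Cre and 1.28 in floxed ventricle. The difference between Egln1Tie2Cre and floxed ventricle was 1.94-fold, or a log2 ratio of 0.61 after adding 1 to each FPKM. Between the library labelled Egln1/Hif2aTie2Cre and Egln1Tie2Cre the log2 ratio was -0.68. Loxl1, which is best known for elastic fibres, had 11.4, 7.79 and 9.50 FPKM, an order of libraries like that of Serpinh1 but with no comparison past 1.5-fold. Loxl2, which cross-links collagen IV, had 2.63, 2.44 and 2.65 FPKM. An unprocessed pseudogene, Gm21451, and the gene Gm48789 are near-identical to part of Loxl2. Exons of Loxl2 also share 301 bases with Gm27177 on the opposite strand, so the level of Loxl2 is uncertain.

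Summed over all 5 lysyl oxidases the level was 17.7 FPKM in the library labelled Egln1/Hif2aTie2Cre, 16.6 in Egln1Tie2Cre and 15.6 in floxed ventricle, so the family total differed little while its makeup differed. Loxl1 made up 64.3%, 47.0% and 60.9% of the sum in that order. Lox made up 6.67%, 15.0% and 8.22%. Loxl3, a lysyl oxidase whose exons overlap the coding gene Htra2 on the opposite strand, made up 11.7%, 21.5% and 11.5%.

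**Figure D2:**
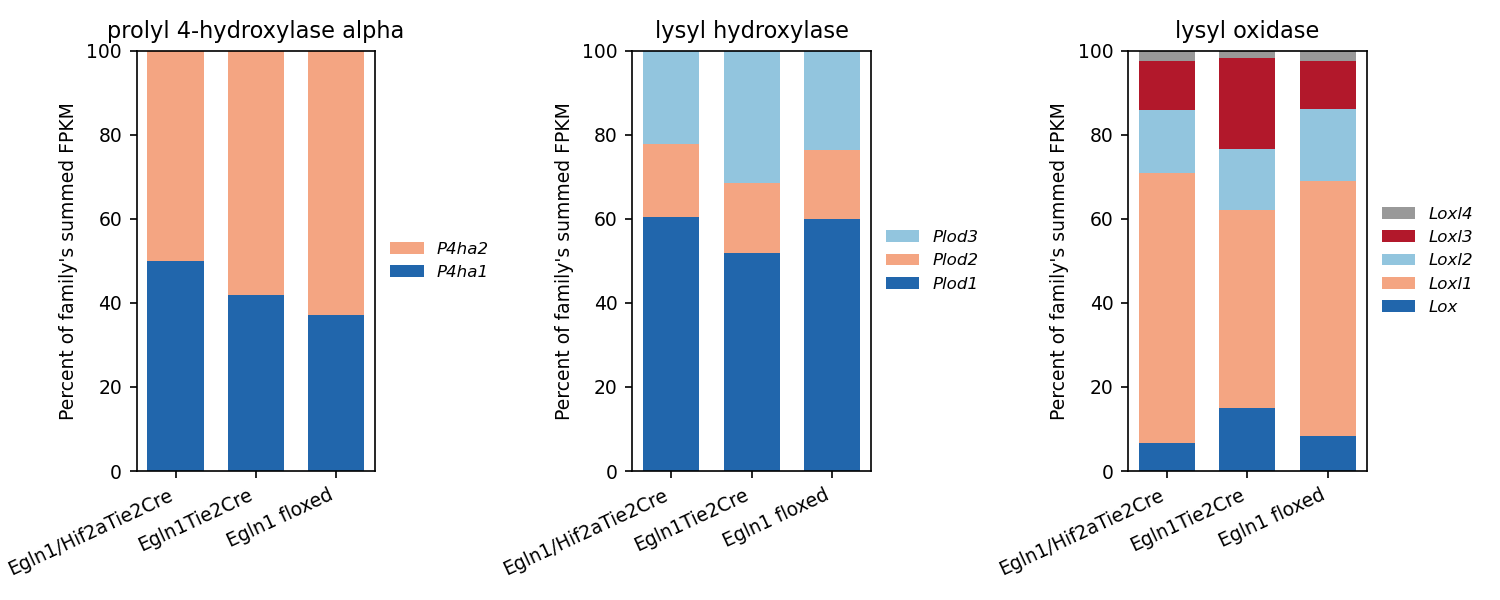
Percent of each family's summed FPKM that each isoenzyme makes up, 1 bar per pooled library, for the prolyl 4-hydroxylase alpha subunits, the lysyl hydroxylases and the lysyl oxidases. P4ha1 takes 50.1% in the library labelled Egln1/Hif2aTie2Cre against 37.1% in floxed ventricle, and Plod3, Lox and Loxl3 take their largest shares in Egln1Tie2Cre.

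The position of each member in both Tie2Cre libraries was then set against floxed ventricle. P4ha1 lay beyond 1.5-fold in the library labelled Egln1/Hif2aTie2Cre, and Plod3, Lox, Pcolce2 and Serpinh1 did so in Egln1Tie2Cre. Whether these members differ in that way beyond the spread between animals cannot be tested with single libraries. The genes nearest to P4ha1 by distance between log2 ratios, over 7448 genes with a mean of at least 5 FPKM, were Rnaseh2c, Ccl9 and Vegfa (distances 0.08, 0.14 and 0.15). Vegfa is a growth factor for endothelium and Ccl9 a chemokine, and exons of Rnaseh2c overlap the coding gene Kat5. Nearest to Pcolce2 were Capg, Fbln2 and Mfap5 (0.03, 0.03 and 0.04), of which Fbln2 and Mfap5 encode proteins of the extracellular matrix. Nearest to Serpinh1 were Rps14, Rgs4 and Fam101b (0.05, 0.06 and 0.08). This likeness rests on 3 libraries, and the nearest of 7448 genes are close by construction. The share of matrix genes among the 7448 was not counted.

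**Figure D3:**
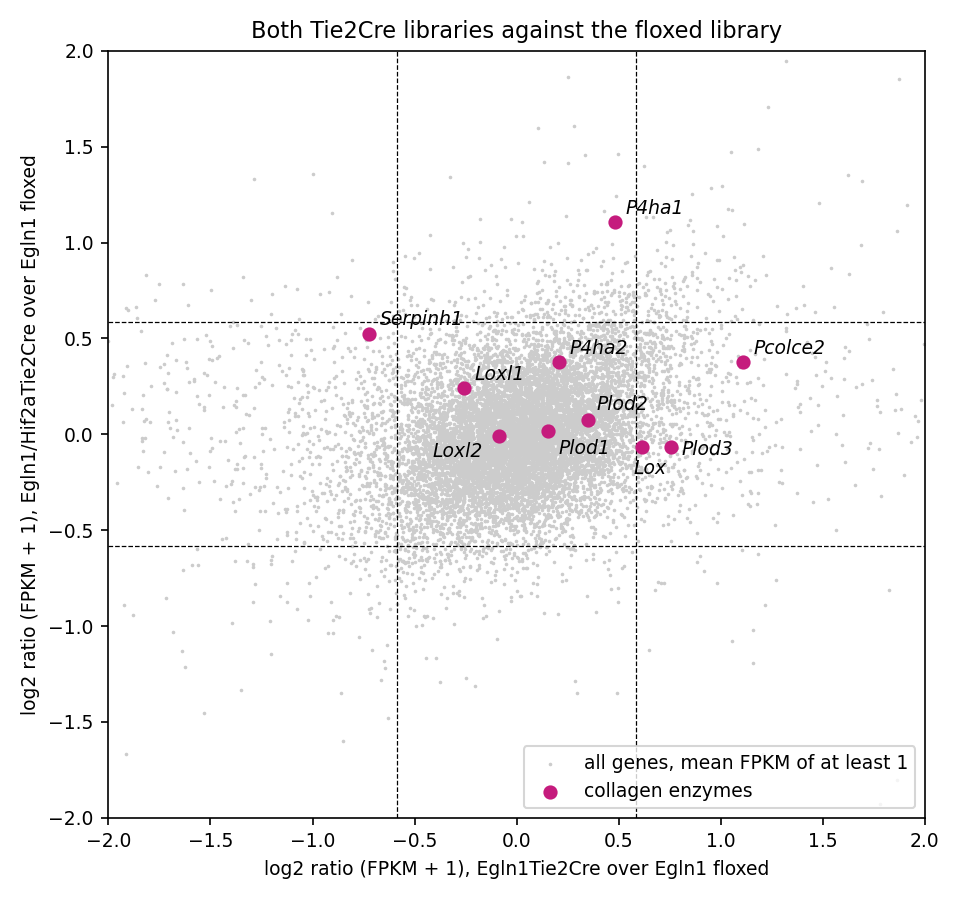
Log2 ratio of FPKM + 1 for Egln1Tie2Cre over floxed (x axis) and for Egln1/Hif2aTie2Cre over floxed (y axis), with the 10 collagen enzymes in pink, 11968 genes in grey and dashed lines at 1.5-fold. Both axes share the floxed library, and 378 genes lie outside the axes. Among the enzymes P4ha1 is alone above the upper line, and Serpinh1 is left of the left line.

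The collagen chains on which the enzymes act were read in the same libraries. None of 7 chains (Col1a1, Col1a2, Col3a1, Col5a1, Col5a2, Col4a1 and Col4a2) was 1.5-fold apart in any comparison. Col1a1 had 19.0 FPKM in the library labelled Egln1/Hif2aTie2Cre, 22.1 in Egln1Tie2Cre and 20.8 in floxed ventricle, and Col3a1 had 65.5, 47.1 and 69.1. The fibrillar chains Col1a1, Col1a2 and Col3a1 summed to 116.5, 102.8 and 128.9 FPKM.

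Enzyme messages per fibrillar chain message were higher in Egln1Tie2Cre than in floxed ventricle for 9 of the 10 members, Serpinh1 being the exception. The chain sum was lower in Egln1Tie2Cre (102.8 against 128.9 FPKM), so a gene of equal FPKM in both would also have a higher ratio. The share of all genes with a higher ratio was not computed, so the count is not shown to be particular to the enzymes. For Pcolce2 the ratio was 0.148 in Egln1Tie2Cre and 0.0505 in floxed ventricle, or 2.93-fold higher. For Loxl1 and Loxl2 the excess was 1.03-fold and 1.15-fold, and against the sum of Col4a1 and Col4a2 their direction turned, at 0.885 and 0.993 of the floxed ratio. For Lox it was 2.43-fold higher, for Plod3 2.17-fold, for P4ha1 1.78-fold and for Plod2 1.62-fold. For Serpinh1 it was 0.579 in Egln1Tie2Cre and 0.768 in floxed ventricle. In the library labelled Egln1/Hif2aTie2Cre the ratio of Serpinh1 was 1.23, which is 1.60-fold above floxed and 2.12-fold above Egln1Tie2Cre, and that of P4ha1 was 0.311, which is 2.46-fold above the floxed value of 0.126.

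**Figure D4:**
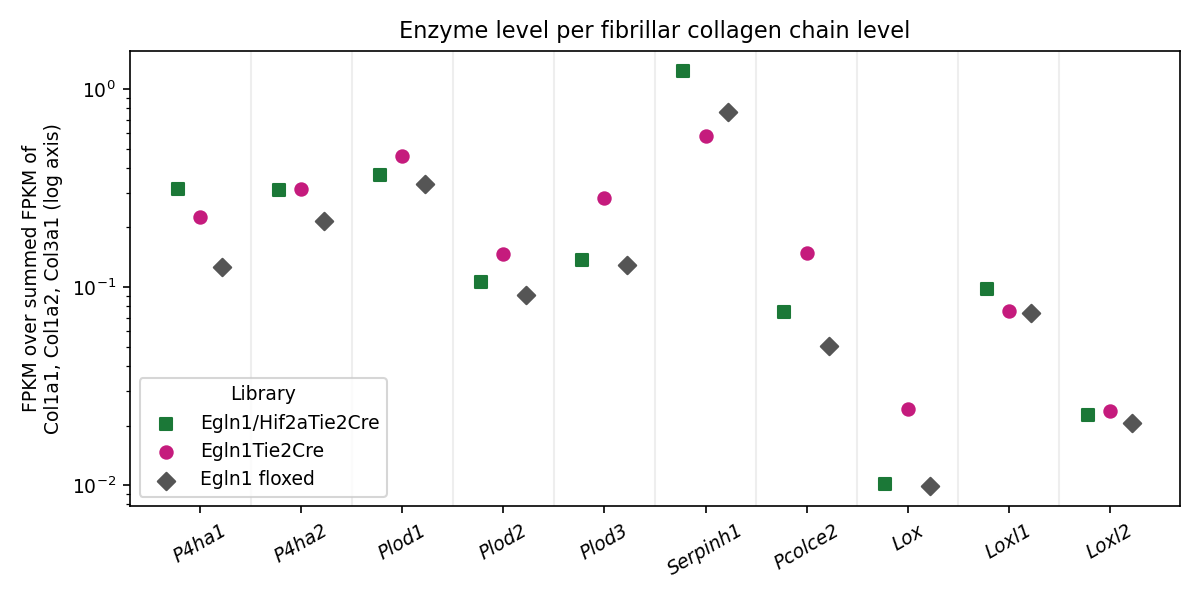
FPKM of each collagen enzyme divided by the summed FPKM of Col1a1, Col1a2 and Col3a1 in the same library, on a log axis, 1 point per pooled library (symbols as in the legend). Pcolce2 stands at 0.148 in Egln1Tie2Cre against 0.0505 in floxed ventricle, and Serpinh1 at 1.23 in the library labelled Egln1/Hif2aTie2Cre against 0.768 in floxed ventricle.

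The rest of the pathway was read from a list of 30 further collagen-processing genes, of which 28 are listed in the tables. Of 25 kept for Egln1Tie2Cre over floxed ventricle, 3 were higher and 0 lower, beside 9.46% and 8.73% of all genes. The median log2 ratio of the 25 was 0.16. P3h2, a prolyl 3-hydroxylase of collagen IV, had 1.82 FPKM in the library labelled Egln1/Hif2aTie2Cre, 5.31 in Egln1Tie2Cre and 1.28 in floxed ventricle, though its exons overlap an antisense gene. Ppib, a peptidyl-prolyl isomerase that assists helix folding and overlaps the coding gene Snx22, had 46.9, 70.5 and 36.0 FPKM. Loxl3 had 2.07, 3.56 and 1.80. All 3 were highest in Egln1Tie2Cre, as were Plod3, Pcolce2 and Lox.

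Over all genes kept for Egln1/Hif2aTie2Cre over floxed ventricle, 4.42% were higher and 3.28% lower. In the library labelled Egln1/Hif2aTie2Cre against floxed ventricle 1 of 25 was higher and 0 lower, with a median of 0.08. This was Kdelr3, a receptor that returns proteins to the endoplasmic reticulum, with 5.19 FPKM in the library labelled Egln1/Hif2aTie2Cre and 3.03 in floxed ventricle, and it no longer passed the threshold when ratios were centred by transcript length. For Egln1/Hif2aTie2Cre over Egln1Tie2Cre the shares over all genes were 9.67% higher and 9.64% lower. Against Egln1Tie2Cre, 1 of 24 was higher and 1 lower in the library labelled Egln1/Hif2aTie2Cre, with a median of -0.12. The higher one was Colgalt2, a collagen galactosyltransferase with 3.57 FPKM in the library labelled Egln1/Hif2aTie2Cre and 1.78 in Egln1Tie2Cre, and the lower one was P3h2.

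**Figure D5:**
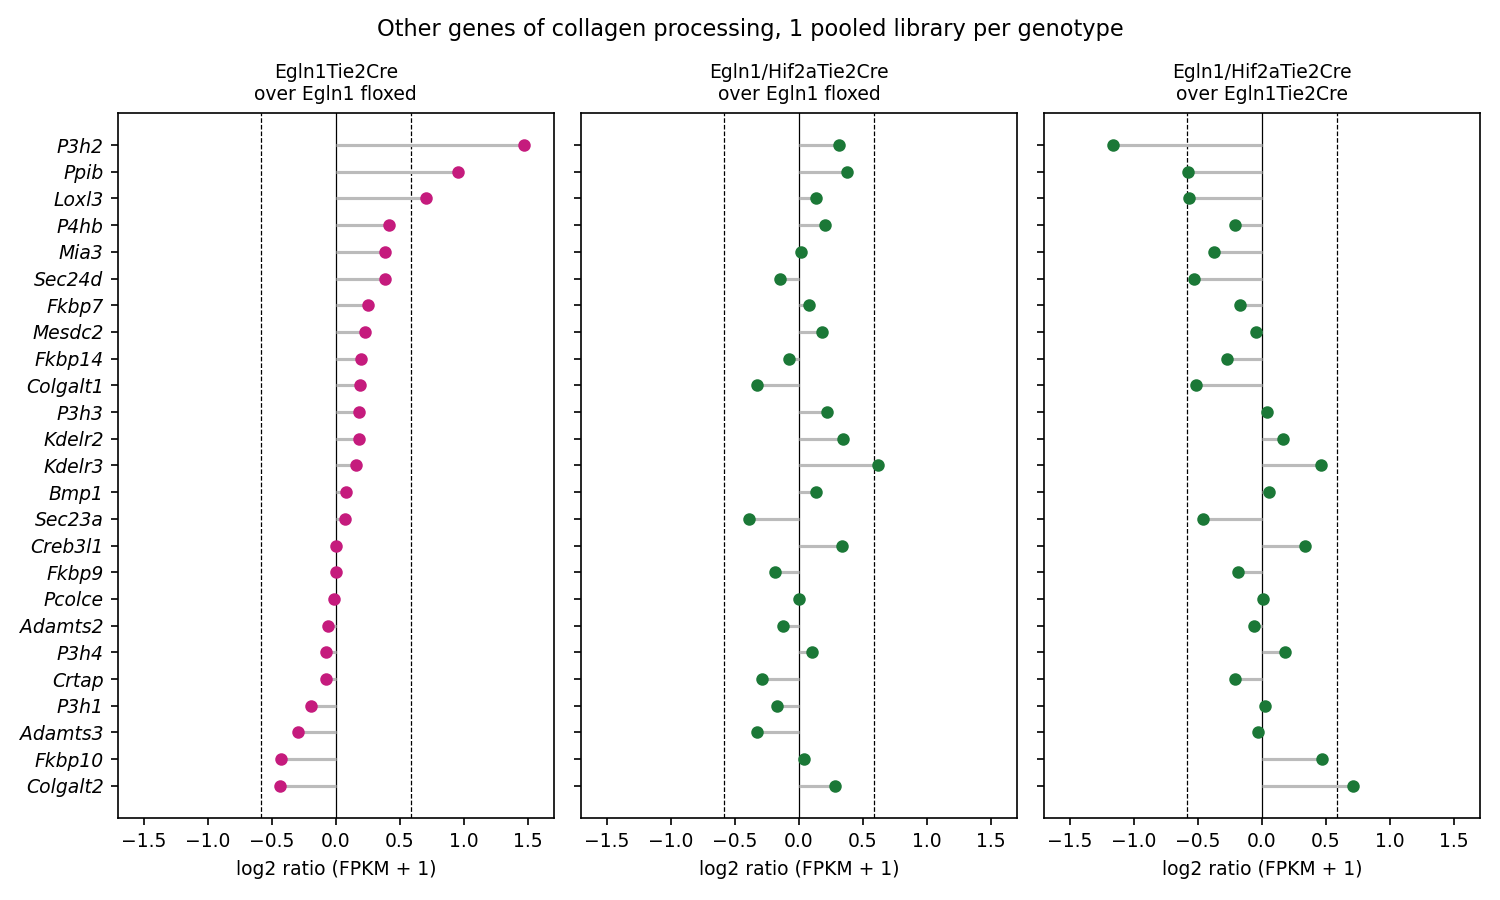
Log2 ratio of FPKM + 1 of 25 further collagen-processing genes in the 3 comparisons, ordered by the first, with dashed lines at 1.5-fold and 1 pooled library per genotype. P3h2, Ppib and Loxl3 pass the line in Egln1Tie2Cre over floxed, where no gene passes it on the left.

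HIF targets outside the collagen enzymes are given for context. Of 15 kept, 5 were higher and 0 lower in Egln1Tie2Cre than in floxed ventricle, beside 9.46% and 8.73% of all genes. In the library labelled Egln1/Hif2aTie2Cre 4 were higher and 0 lower than in floxed ventricle, beside 4.42% and 3.28% of all genes. Vegfa, the endothelial growth factor, had 311 FPKM in the library labelled Egln1/Hif2aTie2Cre, 220.5 in Egln1Tie2Cre and 142 in floxed ventricle, the same order as P4ha1. Slc16a3, a lactate exporter, had 18.7, 7.43 and 0.875 FPKM, again in that order. Egln3, a HIF prolyl hydroxylase, had 65.3, 19.9 and 25.2 FPKM. Ndrg1, a hypoxia-induced gene, had 19.0, 33.2 and 15.3 FPKM, and Ankrd37, which overlaps other coding genes, had 9.39, 19.8 and 7.34. The last pair was highest in Egln1Tie2Cre, as Plod3, Pcolce2 and Lox were.

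Markers of the cells that could carry these messages were read beside them. In whole tissue, fewer cells of a type and less RNA per cell cannot be told apart. The 9 fibroblast markers summed to 537 FPKM in the library labelled Egln1/Hif2aTie2Cre, 468 in Egln1Tie2Cre and 452 in floxed ventricle. Of the 9, 4 were highest in the library labelled Egln1/Hif2aTie2Cre, 2 in Egln1Tie2Cre and 3 in floxed ventricle. Among them 1 was higher and 0 lower by the threshold in Egln1Tie2Cre than in floxed ventricle, beside 9.46% and 8.73% of all genes. It was Postn, a matricellular protein of activated fibroblasts, with 24.1, 47.9 and 22.5 FPKM. Smooth muscle and pericyte markers summed to 300.5, 246.7 and 256.8 FPKM in the same order, endothelial markers to 246, 225 and 204, and macrophage markers to 233, 108 and 153. In the library labelled Egln1/Hif2aTie2Cre over floxed ventricle, 2 of 6 endothelial markers, Emcn and Cldn5, were at least 1.5-fold higher. So was 1 of 5 macrophage markers, Lyz2, beside 4.42% of all genes. The endothelial markers had no common order, with 2 of 6 highest in the library labelled Egln1/Hif2aTie2Cre, 3 in Egln1Tie2Cre and 1 in floxed ventricle. The smooth muscle and macrophage sums were highest in the library labelled Egln1/Hif2aTie2Cre and lowest in Egln1Tie2Cre, as Serpinh1 and Loxl1 were. Of the other lists, Dpt (71.4, 36.9 and 48.4 FPKM) and Lum (48.2, 30.3 and 41.6) had that order. So did Acta2 (90.6, 51.4 and 64.1) and Cldn5 (24.3, 11.8 and 14.4), while others such as Postn and Pecam1 did not. Of the 6 smooth muscle and pericyte markers, 3 were highest in the library labelled Egln1/Hif2aTie2Cre and 3 in floxed ventricle. Among these, Myh11 (8.79, 10.9 and 12.7) and Pdgfrb (13.5, 14.1 and 17.9) were lowest in the library labelled Egln1/Hif2aTie2Cre. Rgs5, the most abundant of them, was lowest in floxed ventricle (160, 147 and 136). Past 1.5-fold in the library labelled Egln1/Hif2aTie2Cre over Egln1Tie2Cre, Lum, Dpt, Acta2, Emcn, Cldn5, Lyz2 and C1qa were higher and Postn was lower. Over all genes kept in that comparison, 9.67% were higher and 9.64% lower. The macrophage sum consisted mostly of Lyz2 (153, 62.5 and 91.9 FPKM) and C1qa (60.3, 28.5 and 42.1). Of the other macrophage markers, Cd68 was highest in floxed ventricle (5.23, 4.19 and 6.23), Csf1r differed little (10.8, 10.3 and 10.2) and Adgre1 was 3.64, 2.38 and 2.75.

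Some mesothelial, atrial and cartilage markers were highest in Egln1Tie2Cre, as were Plod3, Pcolce2, Lox and P3h2, but others of the same lists were not. Of 5 mesothelial markers, 3 were listed, and they summed to 2.31 FPKM in the library labelled Egln1/Hif2aTie2Cre, 24.0 in Egln1Tie2Cre and 2.59 in floxed ventricle. Wt1 was 1.60, 10.2 and 2.25 FPKM and Krt19 was 0.169, 13.7 and 0.218 in that order, while Upk3b was lowest in Egln1Tie2Cre at 0.538, 0.0429 and 0.122 FPKM. The 4 atrial markers summed to 347, 1986 and 214 FPKM, of which Nppa alone gave 256, 1858 and 160.2. Myl7 and Myl4 were also highest in Egln1Tie2Cre, whereas Sln was highest in the library labelled Egln1/Hif2aTie2Cre (16.4, 10.6 and 7.85). By the threshold, 3 of the 4 were higher in Egln1Tie2Cre than in floxed ventricle, beside 9.46% of all genes. All 4 were higher in the library labelled Egln1/Hif2aTie2Cre than in floxed ventricle, beside 4.42% of all genes. Cartilage and valve markers, of which 4 of 6 were listed, summed to 4.94, 12.7 and 3.92 FPKM. Comp was 2.17, 10.04 and 1.80 FPKM, whereas Fmod was 1.48, 1.45 and 1.10, and Chad and Sox9 were under 1 FPKM in every library. Which cells carried these marker messages, atrial or ventricular, cannot be told from whole tissue. The part of any such cells in the values of the collagen enzymes was not tested.

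In the authors' deposited table the q-value, from a test of 2 single libraries, was 0.9996 for every member in every comparison except 1 of Serpinh1. For Serpinh1 the authors' deposited table gives 0.465 between the library labelled Egln1/Hif2aTie2Cre and Egln1Tie2Cre.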

How the data were processed

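RNA sequencing of left ventricle was made from 3 pooled libraries. The authors deposited 3 tables, 1 per pair of libraries, with FPKM per gene, a fold and a q-value, per the file headers. Per the submitters' processing notes TopHat2 and Cuffdiff were used. No source used here names versions, the genome build or the depth. Each FPKM column was matched to a library by the titles in its table's name and by values that recur between tables, identical for 14368 of 14369 shared genes in the floxed library and for all shared genes in the others.

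Ratios are log2 of FPKM with a pseudocount of 1, for genes with a mean of at least 1 FPKM, and the threshold is 1.5-fold. No test was possible with 1 library per genotype. The ratio code was tested on simulated data. Of 15503 gene IDs, 15293 matched GENCODE M21 (GRCm38). Copies were sought with blastn 2.17.0 (at least 90% identity over 100 bases and 50% of the shorter transcript), and overlaps with bedtools 2.31.1.

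The members and lists were chosen with earlier results of these data known. All members are named. Of the further collagen-processing genes, up to 6 past the threshold per comparison are named, with P4hb and Ppib always, and of context lists up to 3. For the 3 members farthest from 0 the 3 nearest genes are named.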

Additional observations from a re-analysis of the deposited data

How the results depend on the processing

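Log2 ratios of single members kept their side of 1.5-fold in all 204 repeats, and 6 of these changed sign, none of them past the threshold. The repeats that only altered the filter could not change a ratio, since a filter keeps or drops a gene. Centring on a single median shifts every ratio of a comparison by the same amount. The count of 204 therefore overstates how far the ratios were tried. Centred on genes of like FPKM, Plod1 was -0.017 in Egln1Tie2Cre over floxed (0.15 as reported). The other 5 were in Egln1/Hif2aTie2Cre over floxed, for Plod1, Lox and Loxl2, whose ratios there were near 0 as reported (0.02, -0.06 and -0.0092). The repeats used a pseudocount of 0.1, no filter, a mean of at least 5 FPKM (which drops Lox and Loxl2), 3 ways of centring, and centring by transcript length, the last chosen after seeing the data. Leaving out Plod3 for its overlap with a coding gene, also chosen after seeing the data, gave 3 and 4 members past 1.5-fold in place of 4 and 5.

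At 2-fold, 1 member was left in Egln1Tie2Cre over floxed (Pcolce2) and 1 in Egln1/Hif2aTie2Cre over Egln1Tie2Cre (Serpinh1). Counts of the further collagen-processing genes were less stable. For Egln1Tie2Cre over floxed they were 1 at a mean of at least 5 FPKM and 1 at 2-fold, in place of 3. For Egln1/Hif2aTie2Cre over floxed they were 0 at both settings and 0 after centring by length, in place of 1. For Egln1/Hif2aTie2Cre over Egln1Tie2Cre they were 4 with a pseudocount of 0.1, 0 at a mean of at least 5 FPKM and 1 at 2-fold, in place of 2. A higher threshold or filter leaves fewer genes by construction. Against Col4a1 and Col4a2 or against all 32 Col chains, the log2 ratio of Plod2 per chain in Egln1Tie2Cre over floxed was 0.48 and 0.54, below the threshold, and that of Serpinh1 in Egln1/Hif2aTie2Cre over floxed was 0.58 and 0.57. Serpinh1 per chain in Egln1Tie2Cre over floxed passed the threshold against Col4a1 and Col4a2 (-0.62). The cause was not tested.

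No paired analysis was possible because each genotype has 1 library. Depth is unknown, so the counting error of low genes such as Lox and Loxl2 cannot be given.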
